A study of Mus musculus with 2 samples.

Results

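Tcf15, Meox1, Foxc1, Foxc2 and Pax3 encode transcription factors of the somite and of the dermomyotome, the dorsal part of the somite that gives rise to skeletal muscle and dermis. The peaks of FLAG-tagged Msgn1 around these 5 genes were selected by position: a peak was included when its midpoint lay within 150 kb of the gene on mm9. The selection gave 10 peaks of the 4087 in the authors' list, at 4 of the 5 genes. Foxc1 had 4 peaks, Tcf15, Foxc2 and Pax3 had 2 each, and Meox1 had none. The genes were chosen with the peak list known, so the number of peaks at each gene is given as a description and was not tested.

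Msgn1, or mesogenin, belongs to the basic helix-loop-helix (bHLH) factors and acts in the presomitic mesoderm, the unsegmented tissue that buds off somites at its anterior end. Factors of the bHLH class bind DNA as dimers, at short palindromic sites called E-boxes. Foxc1 and Foxc2 are forkhead factors needed together for paraxial mesoderm to segment. Tcf15 (paraxis) is a bHLH factor needed for new somites to become epithelial. Meox1 is a homeobox factor active in early somites, and Pax3 is a paired-box factor that marks the dermomyotome, its muscle progenitors, the dorsal neural tube and the neural crest.

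The data came from embryoid bodies, the aggregates that differentiating embryonic stem cells form. The cells were of the A2lox FMsgn1 line, labelled as strain C57BL/6. Both libraries were from embryoid bodies differentiated for 2 days and then exposed to doxycycline at 1 ug/ml for 36 h, which switches on FLAG-Msgn1 from the transgene of this line. The FLAG library held DNA recovered with the anti-Flag M2 antibody, and the input library held DNA that no antibody had selected. Each group consisted of 1 library and neither was uninduced, so the peaks describe introduced, tagged Msgn1 in these 2 libraries and no value has a replicate error. The identity of the cells could not be checked from a peak list, the sequencing depth is unknown, and no interval on a score can be given.

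Of the promoter sequences of the 5 genes, the reference table held that of Foxc1, which is also the gene with the closest peak outside a gene body. The peak ended 0.936 kb before the low-coordinate edge of the gene on mm9. By that edge, which is rounded to 1 kb, the promoter window lies beside the peak and not within it. The 250 bases before the Foxc1 start (RefSeq, GRCm38.p6, chr13:31806396-31806645, plus strand) are shown because they are the stretch between this peak and the gene that sequence was given for. They read, all in lower case because no base matched the E-box searched:
Foxc1 promoter: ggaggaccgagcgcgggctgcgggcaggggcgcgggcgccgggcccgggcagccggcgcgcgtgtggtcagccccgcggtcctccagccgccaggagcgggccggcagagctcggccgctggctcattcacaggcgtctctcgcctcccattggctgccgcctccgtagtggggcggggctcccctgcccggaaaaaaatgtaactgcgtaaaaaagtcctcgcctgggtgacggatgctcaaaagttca

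The sequence was rich in G and C, at 70.8% against a median of 52.4% over all promoters of the table. It held no CANNTG, the general E-box, which reads the same on both strands and was present in 66.2% of the 32851 promoters cut to the same length. This says only that these letters are not in this window. Sequence on mm9 under the peaks themselves was not used here.

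Foxc1 had the most peaks within 150 kb, and 3 of its 4 lay before the gene. Foxc1 (gene ID 17300) is at chr13:31898000-31903000 on mm9, with edges rounded to 1 kb as for all 5 genes. It reads on the plus strand in the promoter table, so the side of lower coordinates is upstream. The closest peak, at chr13:31896342-31897064, had its midpoint 1.30 kb upstream and scored 63.61. The Foxc1 stretch used is 5 kb long, whereas the gene is 3.99 kb long in GRCm38.p6, so a distance this short is approximate. Scores were assigned to the peaks by the authors on a scale the list does not state, and are used only to rank peaks within it. The next peak, chr13:31876130-31876718, lay 21.6 kb upstream with a score of 67.4. The third, chr13:31851469-31852268, lay 46.1 kb upstream with a score of 54.08. Together the 3 upstream peaks spanned 45.6 kb, with gaps of 19.6 and 23.9 kb between them, and no other peak lay upstream within 300 kb. The fourth peak was on the other side, at chr13:32050580-32051370, 148 kb downstream, and its score of 51.93 was the lowest of the 10.

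All 4 Foxc1 peaks thus scored under the median of the whole list, with a median of 58.8 against 72.8. They ranked 2355th at best and 3756th at worst of 4087. In GRCm38.p6, the build of the gene table at hand, no protein-coding gene lies within 150 kb upstream of Foxc1. On the downstream side the neighbour is Gmds, an enzyme of GDP-fucose synthesis, whose nearer edge lies within 50 kb of Foxc1. The 3 upstream peaks are thus on the side with no other protein-coding gene in that range, whereas the downstream peak lies on the side of Gmds. By this order Gmds is nearer than Foxc1 to the downstream peak, or spans it, if it keeps its place on mm9. Nearness does not show which gene a peak acts on, and order was read from a build other than that of the peaks.

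Foxc2, the close relative of Foxc1, had its peaks on one side, farther away than the 3 upstream peaks of Foxc1. Foxc2 (gene ID 14234) is at chr8:123640000-123643000, and both peaks were on the side of higher coordinates. The nearer, chr8:123724839-123725415, lay 82.1 kb from the gene and scored 68.58. The other, chr8:123779351-123779985, lay 137 kb away and scored 80.33. Neither came within 50 kb of Foxc2, in contrast to the 3 upstream peaks of Foxc1. The 2 peaks were 53.9 kb apart and were 577 and 635 bp wide, both narrower than the median peak of the list (678 bp).

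The gene between Foxc2 and these peaks makes their assignment uncertain. In GRCm38.p6, Foxl1, a forkhead gene known from gut mesenchyme, lies within 50 kb of Foxc2 on the side of the peaks. It is the only protein-coding neighbour there within 150 kb. Foxf1, a forkhead gene of lateral and splanchnic mesoderm, and Mthfsd lie within 50 kb on the other side, which held no peak within 150 kb. By this order Foxl1 is the nearer protein-coding gene to both peaks if it keeps its place on mm9, which was not checked.

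The strongest peak of the 10 was near Tcf15. Tcf15 (gene ID 21407) is at chr2:151969000-151975000, and both of its peaks were on the side of lower coordinates. The first, chr2:151916725-151917855, lay 51.7 kb from the gene, was 1131 bp wide and scored 203.38, at rank 291 of the list, above 92.9% of all peaks. The second, chr2:151866083-151866996, lay 102 kb from the gene and scored 81.07, at rank 1678. The gap between them was 49.7 kb. No peak lay within 50 kb of Tcf15, and none on its other side within 300 kb.

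Other genes lie on the same side of Tcf15 as these peaks. In GRCm38.p6, Srxn1 (sulfiredoxin) and Scrt2, a zinc finger gene of the scratch and snail superfamily, both lie within 50 kb of Tcf15 on the side of the peaks. Slc52a3, a riboflavin transporter, follows within 150 kb. Csnk2a1 and Tbc1d20 lie on the other side. The peak scoring 203.38 therefore has at least Srxn1 and Scrt2 as candidates besides Tcf15. By this order Srxn1 and Scrt2 are both nearer than Tcf15 to each of the 2 peaks, or span them. That holds if they keep their places on mm9, which was not checked. Which gene is closest to either peak was not measured on mm9.

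Pax3 was the one gene with peaks inside its body. Pax3 (gene ID 18505) is at chr1:78098000-78197000 on mm9, and both peaks lay within this stretch. The stronger, chr1:78138010-78138969, had its midpoint 40.5 kb from the low-coordinate edge, was 960 bp wide and scored 174.8, at rank 415, above 89.8% of all peaks. The other, chr1:78112286-78113198, was 14.7 kb from that edge and scored 63.61, the same value as the closest Foxc1 peak. The 2 peaks were 24.8 kb apart, and no other peak lay within 150 kb of either edge of the gene. Whether they are in introns or exons was not analysed here, as no annotation of mm9 was given. The Pax3 stretch used for the selection is 99 kb long, whereas the gene is 95.9 kb long in GRCm38.p6, so an edge may be off by up to 3.13 kb. Both peaks lie farther than that from either edge. Pax3 has 2 protein-coding neighbours within 150 kb in GRCm38.p6, Gm2102 and Sgpp2, both on the side of higher coordinates.

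Meox1 had no peak within 150 kb on either side. Meox1 (gene ID 17285) is at chr11:101738000-101756000, and the nearest peak, chr11:101561264-101562640, lay 176 kb away on the side of lower coordinates. That peak scored 401.26, at rank 54 of the list, above each of the 10 peaks selected at the other genes, and was 1377 bp wide. A second peak on the same side, at 215 kb, scored 61.83. Meox1 also has the most protein-coding neighbours of the 5 genes, 7 within 150 kb in GRCm38.p6. They include Etv4, an ETS factor, and Dhx8 on the side of these peaks, and Sost, a secreted Wnt inhibitor, and Dusp3 on the other. By this order Etv4 and Dhx8 are nearer than Meox1 to both peaks, or span them. That holds if they keep their places on mm9, which was not checked. Genes farther than 150 kb from Meox1 were not listed. The absence of a listed peak says that no place there passed the authors' calling at an unknown depth, and not that Msgn1 does not bind there.

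**Figure D1:**
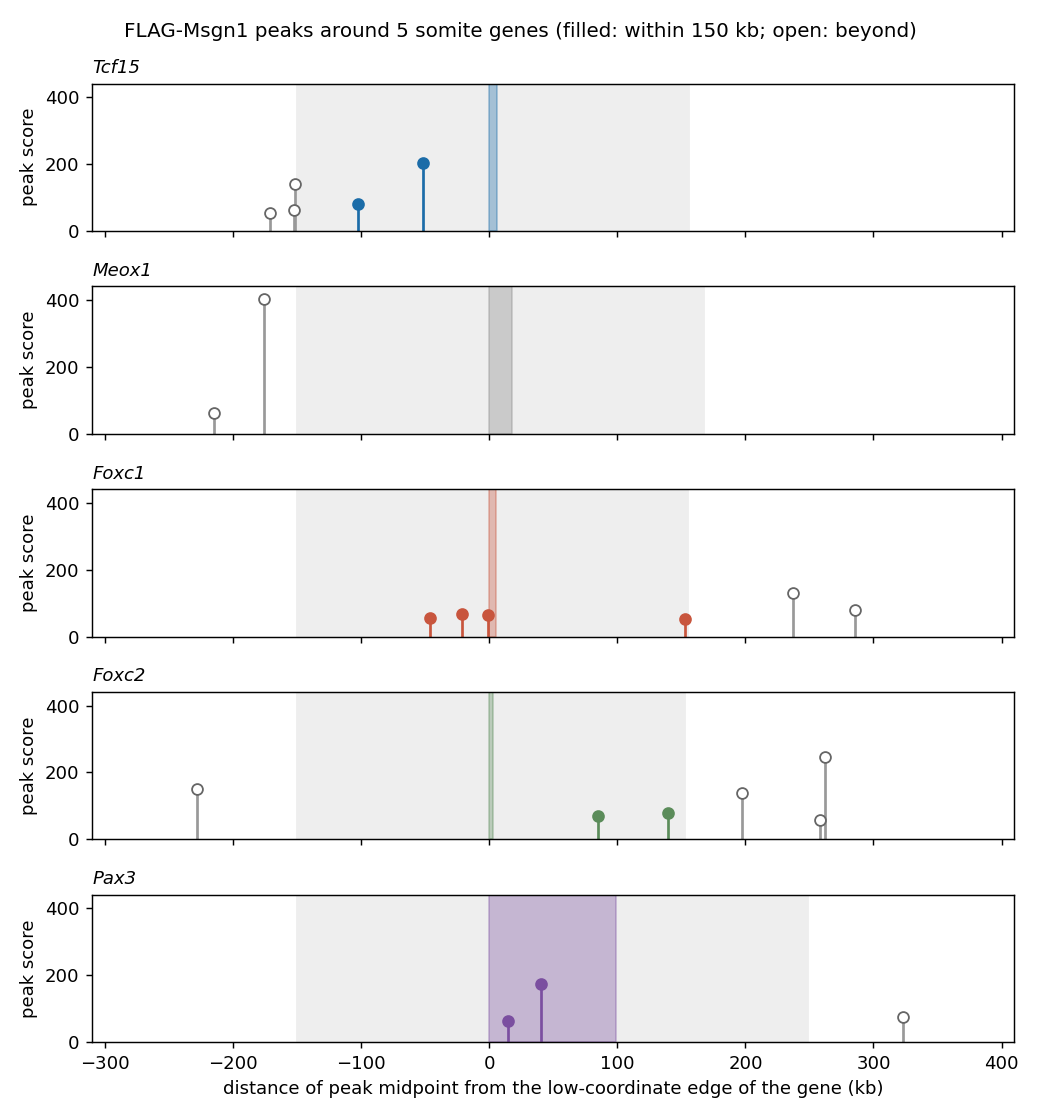
Peaks around each gene, with the distance of the peak midpoint from the low-coordinate edge of the gene in kb on the horizontal axis and the authors' score on the vertical axis. Each stem is 1 peak, filled within 150 kb of the gene and open beyond it, the coloured band is the gene and the grey band the 150 kb window. Foxc1 has 3 filled stems before the gene, Pax3 has both within the gene, Meox1 has none, and the open stem near Meox1 at 176 kb is the highest at 401.26.

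The limit of 150 kb decided some memberships narrowly. The peak just inside was the downstream one of Foxc1, at 148 kb with a score of 51.93. Just outside were 2 peaks near Tcf15, at 151 kb (chr2:151817305-151818019, score 141.07) and at 152 kb (chr2:151816627-151817087, score 61.81), only 0.217 kb apart. A further peak there lay 171 kb from Tcf15 with a score of 52.76. Around Foxc2, the next peak lay 195 kb away on the same side as the selected ones and scored 139.28. Around Pax3, the next peak lay 224 kb away and scored 75.18. With a limit of 160 kb there were 12 peaks, 4 at Tcf15 and 4 at Foxc1, so Foxc1 no longer had the most alone. With 140 kb there were 9, 3 of them at Foxc1.

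As a group, the 10 peaks were neither the strongest nor the weakest of the list. Their scores ran from 51.93 to 203.38 with a median of 67.99. The scores of all 4087 peaks ran from 50 to 1107, with a median of 72.8. The lowest 2 of the 10, both at Foxc1, scored 51.93 and 54.08, above only 8.03% and 14.6% of the list. Of the 10, 2 scored at least 100, one at Tcf15 and one at Pax3, against 28.6% of all peaks. With 10 peaks this count is close to that share and is no result about the group. The other 8 scored from 51.93 to 81.07. Those at Foxc1 and Foxc2 were all under 81, so the 2 forkhead genes had 6 peaks and none at 100 or more. Whether scores differ between the genes was not tested.

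**Figure D2:**
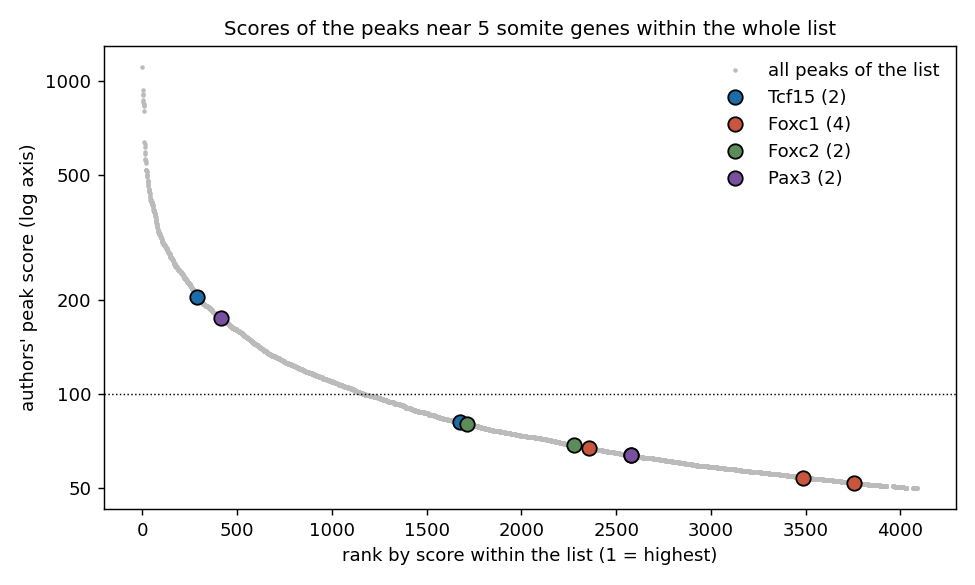
Score of each peak on a log axis against its rank in the list, with all 4087 peaks as small grey points and the 10 selected peaks as large points coloured by gene. The best Tcf15 and Pax3 peaks, at ranks 291 and 415, lie above the dotted line at a score of 100 and the other 8 below it, and the points of the Foxc1 and Pax3 peaks that both score 63.61 coincide.

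The 10 peaks were moderately wide, from 577 to 1131 bp, with a median of 796 bp against 678 bp for the list. Only 3 were narrower than the list's median, the 2 at Foxc2 and the Foxc1 peak 21.6 kb upstream. The Tcf15 peak scoring 203.38 was both the highest and the widest of the 10. Width and score come from the same peak calling, so this is not a separate measure of binding.

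Most of the 10 had another peak nearby. Only 3 had no other peak within 50 kb, the 2 at Foxc2 and the downstream one of Foxc1, whereas 70.0% of all peaks had none. The genes were chosen with the peak list known, so this difference is a description and was not tested. The upstream Foxc1 peaks had each other as neighbours, as did the pair in Pax3. Both Tcf15 peaks had a neighbour at just under 50 kb, at 48.1 and 49.7 kb.

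The number of peaks per gene can be read beside the rest of the genome. Windows as long as each gene with its flanks were laid end to end from the first to the last peak of each chromosome. For Foxc1, 1.16% of 8263 windows of 305 kb held at least 4 peaks. That count takes in the peak 148 kb downstream, and with a limit of 140 kb Foxc1 had 3. Exactly 3 peaks were held by 2.50% of windows of 306 kb. For Tcf15, 11.2% of windows held at least 2, for Foxc2 10.8%, and for Pax3, whose window of 399 kb is longer, 15.3%. Windows without a peak, as at Meox1, made up 66.2%. A window held 0.491 peaks on average at the length used for Foxc1. The windows take in gene deserts as well as genes, and the 5 genes were picked with the list known, so these shares show how often such counts occur and test nothing. A comparison with other somite genes (such as Meox2, Pax7, Uncx and Tbx18) was planned and is not analysed here, since it needs gene positions on mm9.

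**Figure D3:**
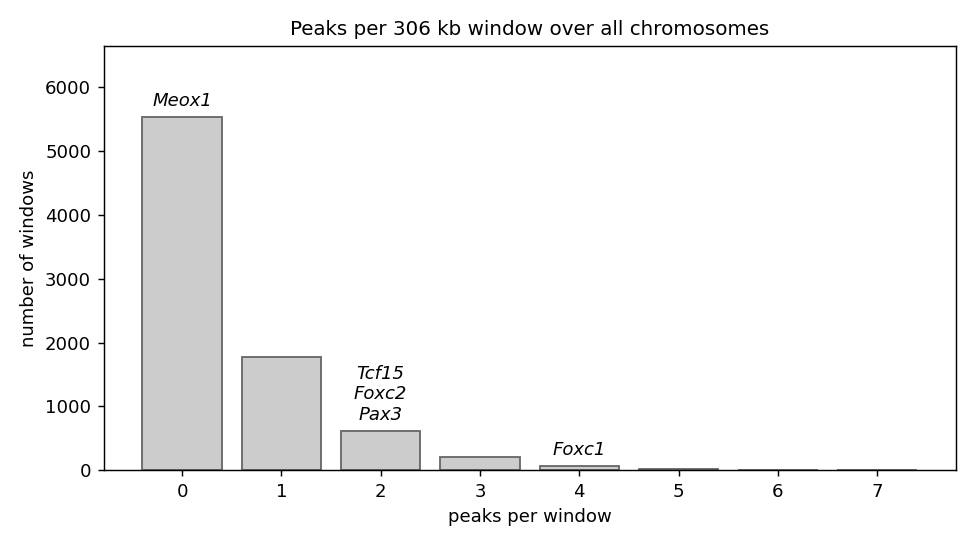
Number of windows of 306 kb, the median window length of the 5 genes, by the number of peaks they hold, over all chromosomes of the list. Gene names stand above the bar for their own count: Meox1 is in the tallest bar, at 0 peaks, Tcf15, Foxc2 and Pax3 are at 2, and Foxc1 is at 4, a count that 69 windows had.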

How the data were processed

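The file used was 1 deposited list of 4087 peaks without a header. The peak names in it show that the authors called peaks with MACS, and its name gives FLAG over input. CASAVA 1.4 and FastQC are listed in the submitters' processing notes, with mm9 as the build. Not given in the sources used here are aligner, MACS version, settings, filters and depth. Each score is the authors' deposited value, with no stated scale. Starts were read as 0-based and are printed 1-based.

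Gene positions on mm9 came with the selection, rounded to 1 kb, and were not checked against an mm9 annotation. Distances run from the nearer gene edge to the peak midpoint. All 5 genes matched the RefSeq table of GRCm38.p6, which was used for names and for neighbouring genes; no position was converted. Genes and neighbours were named by rule: the 5 genes, all their peaks, and protein-coding genes within 150 kb of each. Members and lists were chosen with earlier results of these data known. With 1 library per group no test was made. The counting was tested on 20 simulated lists. Python 3.11.15, numpy 2.4.6 and pandas 2.3.3 were used.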

Additional observations from a re-analysis of the deposited data

How the results depend on the processing

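The number of peaks depended on the window and on the score limit. It was 5 with a window of 50 kb, 19 with 250 kb, and 2 when peaks scoring under 100 were left out, against 10 as reported; these follow from the narrower or wider limit. Counting any base of a peak, or joining peaks less than 1 kb apart, left 10. Meox1 gained 2 peaks at 250 kb and had none in its other 7 alternatives. At 250 kb Foxc1 and Tcf15 had 5 peaks each. The windows of 140 and 160 kb were chosen after seeing the data. The median score ranged from 63.6 (50 kb) to 75.2 (250 kb), and so passed above the 72.8 of the list at the widest window. The share of the 10 peaks past the limit was 40% at a score of 75, where the list had 47.2%, and 10% at 200, where it had 7.41%. Shifting the windows laid over the chromosomes to start midway changed the share for Foxc1 from 1.16 to 1.3%. Both shares are for its 4 peaks at 150 kb and were not computed for its 3 at 140 kb. Of all promoters, 13% held CAGCTG and 3.46% held CATATG, and that of Foxc1 held neither. No paired analysis was possible because each group has 1 library, and for the same reason no library could be left out.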
